A study of Mus musculus with 24 samples.

Results

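The genes described here encode the receptors for glutamate, GABA and glycine, and the measurement is histone H3 acetylation at lysine 27 (H3K27Ac) over each gene in mouse brain, heart, kidney and liver. Glutamate is the main excitatory transmitter of the brain, and GABA and glycine are the main inhibitory ones. AMPA, kainate, NMDA and delta receptors form the ionotropic glutamate receptor family, most of which open a cation channel, while the metabotropic glutamate receptors and the GABA-B receptor signal through G proteins. GABA-A, rho and glycine receptors are pentamers of related subunits around a chloride channel. H3K27Ac marks active promoters and enhancers, and it reports the state of the chromatin at a gene, not the amount of its RNA or protein.

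Members were taken by gene symbol from the deposited table, by a rule that used no measured value. They were chosen with earlier results of these data known. Of 27179 genes, 53 matched: 18 ionotropic glutamate, 8 metabotropic glutamate, 19 GABA-A and rho, 2 GABA-B and 5 glycine receptor genes, 52 in all, and the antisense gene Grin1os. Grin1os spans 7403 bases that all lie inside Grin1, so reads of the pair cannot be told apart, and it is left out of the counts below. All 53 had reads, and all were tested.

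The libraries were made by chromatin immunoprecipitation with an H3K27Ac antibody from mouse organs. Frozen organs were flash frozen, and those called FFPE had gone through 10% formalin into paraffin blocks. Frozen tissue was taken as a core with the CryoCore tool and crosslinked in 1% formaldehyde, and both kinds of chromatin were sheared in a PIXUL sonicator, per the labels' protocols. Each organ has 2 H3K27Ac samples per preservation in the labels, 16 in all, but the table has only 8 columns, named by organ and preservation with no replicate number. A column is treated as 1 library here. No source used here says if it holds a single replicate or the reads of both, and the 2 library kits that the protocol names cannot be matched to columns. Strain, sex, age, the number of animals and the region of the brain are not given either.

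Total reads over genes ranged from 4404789 to 6164562 per library, and the receptor genes held between 8 (Gabrq in FFPE liver) and 864 (Grin2c in FFPE brain) reads in a library. Marker genes followed the organ labels. The median of 8 neuron markers was 5.73 and 6.18 log2 CPM (read counts scaled to the library size) in the brain libraries and 2.92 to 4.15 in the others, the median of 6 cardiomyocyte markers was 5.66 and 6.11 in heart and 2.96 to 3.68 elsewhere, that of 7 nephron markers was 5.93 and 6.43 in kidney and 4.11 to 4.88 elsewhere, and that of 6 hepatocyte markers was 6.96 and 7.73 in liver and 3.27 to 4.03 elsewhere.

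Promoter sequences were available from RefSeq (GRCm38.p6, the assembly behind mm10) for 36 of the 52 genes, as 43 windows from 250 bases before to 50 bases after a transcription start. Of these, 4 stretches of 250 bases before the start are shown. Grin1 and Gabra6 had the largest brain differences among the ionotropic glutamate and the GABA-A genes, Gabra3 was a GABA-A gene on the X chromosome with no call, and Grm2 held both parts of the element bound by REST, a repressor of neuronal genes in other cells. In the first 3, capitals mark the dinucleotide CG (27 in Grin1, 2 in Gabra6, 0 in Gabra3), and in Grm2 they mark the letters TTCAGCACC and GGACAG. All 4 lie on the minus strand and are written 5′ to 3′ in the direction of transcription. Grin1 lies at chr2:25319188-25319437, Gabra6 at chr11:42321073-42321322, Gabra3 at chrX:72656920-72657169 and Grm2 at chr9:106656110-106656359.
Grin1: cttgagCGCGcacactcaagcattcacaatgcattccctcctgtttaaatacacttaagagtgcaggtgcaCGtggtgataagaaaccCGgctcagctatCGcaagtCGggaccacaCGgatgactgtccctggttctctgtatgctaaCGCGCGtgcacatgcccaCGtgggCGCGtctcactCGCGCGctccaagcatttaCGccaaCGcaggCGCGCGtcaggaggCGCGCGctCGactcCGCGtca
Gabra6: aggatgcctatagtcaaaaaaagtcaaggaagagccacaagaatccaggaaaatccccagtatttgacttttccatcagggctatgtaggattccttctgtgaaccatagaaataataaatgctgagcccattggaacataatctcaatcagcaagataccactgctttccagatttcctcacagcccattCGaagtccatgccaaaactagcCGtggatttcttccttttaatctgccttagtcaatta
Gabra3: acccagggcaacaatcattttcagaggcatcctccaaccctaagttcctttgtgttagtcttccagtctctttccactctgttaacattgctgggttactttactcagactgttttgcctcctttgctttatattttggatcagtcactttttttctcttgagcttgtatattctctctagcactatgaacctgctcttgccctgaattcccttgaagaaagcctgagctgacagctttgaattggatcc
Grm2: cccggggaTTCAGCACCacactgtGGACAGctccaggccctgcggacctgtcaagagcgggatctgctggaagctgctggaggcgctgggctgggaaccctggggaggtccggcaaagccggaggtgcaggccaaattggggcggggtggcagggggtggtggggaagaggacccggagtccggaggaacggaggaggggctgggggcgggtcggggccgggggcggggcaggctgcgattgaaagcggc

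The question of the first comparison was at which receptor genes brain carried more H3K27Ac than heart, kidney and liver. Of the 52 genes, 38 were higher in brain and 0 were lower (limma over all genes, two-sided, Benjamini-Hochberg adjusted p under 0.05, the threshold for a call throughout). Among all 26944 genes tested, 8.73% were higher and 13.6% lower. The median receptor gene was 1.26 higher in brain on the log2 scale, 2.40-fold, while the median over all genes was 0.04. In 43 of the 52 genes both brain libraries lay above all 6 others, which held for 13.1% of all genes, and for 0 receptor genes did both lie below, against 11.7% of all genes. By class, 15 of 18 ionotropic glutamate, 7 of 8 metabotropic glutamate, 11 of 19 GABA-A and rho, 2 of 2 GABA-B and 3 of 5 glycine receptor genes were higher. At an unadjusted p under 0.05, 41 were higher and 1, Grin3b, was lower, and with voom weights on the recovered reads 39 were called higher and 0 lower. With a variance prior without trend 27 of the 38 calls remained. Without the FFPE brain library 33 of the 38 calls remained, and without any 1 library of the other organs 34 to 38. Without the Frozen brain library 24 remained; the 14 that did not were Gabra2, Gabra4, Gabra5, Gabrg1, Glra1, Glra4, Grid1, Grik1, Grik3, Grik4, Grin3a, Grm2, Grm7 and Grm8. There the brain differences of Grik4, Gabra4 and Glra4 were 0.53, 0.79 and 0.73, against 0.84, 1.33 and 1.14 with all libraries. Since each group is 1 library, the p-values reflect how these 8 libraries scatter beyond organ and preservation. In bulk tissue, fewer cells of a type and less acetylation per cell cannot be told apart.

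**Figure D1:**
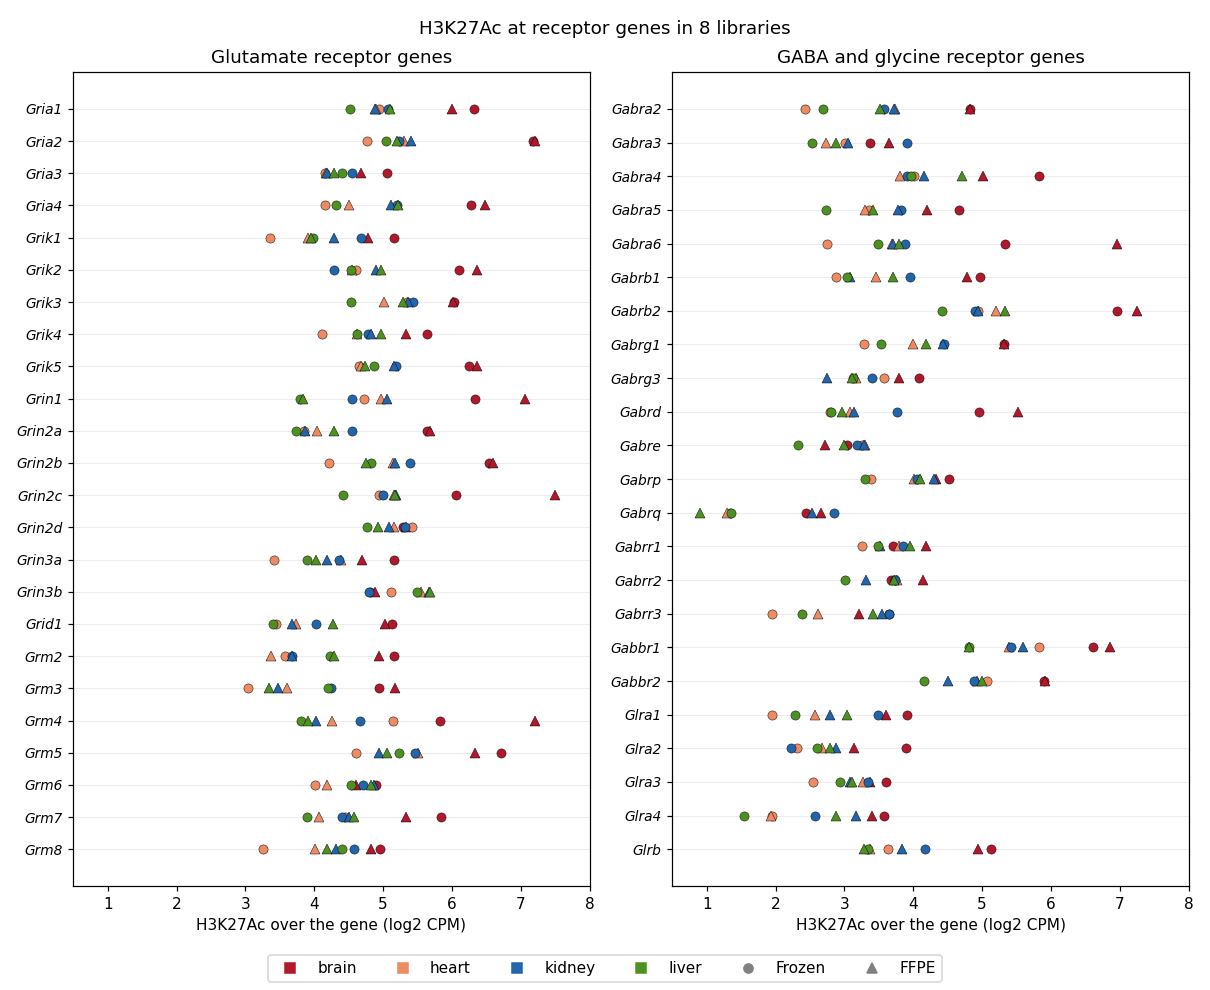
H3K27Ac over 47 of the 52 receptor genes (horizontal axis, log2 CPM) in the 8 libraries, coloured by organ, with circles for Frozen and triangles for FFPE. Both brain libraries lie to the right of the 6 others in 38 of them, and Grin3b is the gene whose brain libraries lie farthest to the left of its highest library.

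Other cell types of the brain moved in the same comparison. All 8 neuron markers were higher in brain (median 1.63), with 4 of 5 excitatory neuron markers (1.47), 3 of 6 inhibitory neuron markers (0.76, with Lhx6 lower), 3 of 5 astrocyte markers (0.67) and 4 of 5 oligodendrocyte markers (1.14), whereas 4 of 4 endothelial markers were lower (−0.98). The astrocyte markers Aldh1l1 and Gja1 were at −0.55 and −0.61, neither called. The summed level of the neuron markers was 8.64 and 9.09 log2 CPM in brain and 6.83 to 7.44 elsewhere. That of the oligodendrocyte markers was 7.53 and 7.55 in brain and 6.04 to 6.78 elsewhere. The inhibitory neuron sums were 7.43 and 7.71 in brain and overlapped those elsewhere, 6.87 to 7.70. The astrocyte sums were 7.42 and 7.59 in brain and also overlapped those elsewhere, 7.06 to 7.50. No marker on these lists was at 0 in brain. Their part in the receptor differences was not tested.

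AMPA receptors carry most fast excitatory transmission. Of their 4 subunit genes, 3 were higher in brain. In the sentences that follow, each pair of values is log2 CPM in FFPE and then Frozen tissue, and each difference is brain minus the mean of the 3 other organs with its standard error (SE). Gria2, whose subunit limits the calcium permeability of the channel, read 7.20 and 7.18 in brain, 5.31 and 4.77 in heart, 5.41 and 5.23 in kidney and 5.20 and 5.04 in liver. The lower brain library was 1.77 above the highest other library, and the difference was 2.03 ± 0.21 SE (adjusted p = 1.30e-08, limma with Benjamini-Hochberg). Gria3, an X-linked subunit gene, read 4.67 and 5.06 in brain, 4.17 and 4.16 in heart, 4.18 and 4.55 in kidney and 4.29 and 4.40 in liver. Its brain libraries were still the 2 highest, but the difference of 0.57 ± 0.25 SE (adjusted p = 0.10, limma with Benjamini-Hochberg) was not called. Gria4 and Gria1 lay between them, at 1.63 and 1.26.

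All 5 kainate receptor subunit genes were higher in brain, from 0.84 to 1.60. Grik2, one of the low-affinity subunits that form channels on their own, read 6.37 and 6.11 in brain, 4.55 and 4.60 in heart, 4.89 and 4.29 in kidney and 4.97 and 4.53 in liver. The lower brain library exceeded the highest other library by 1.13, and the difference was 1.60 ± 0.23 SE (adjusted p = 2.76e-06, limma with Benjamini-Hochberg). Grik4, an accessory high-affinity subunit, read 5.34 and 5.64 in brain, 4.62 and 4.11 in heart, 4.83 and 4.77 in kidney and 4.97 and 4.62 in liver. Its brain libraries were the highest by a narrower margin, with a difference of 0.84 ± 0.24 SE (adjusted p = 0.00919, limma with Benjamini-Hochberg). The remaining members were Grik5 at 1.43, Grik1 at 0.94 and Grik3 at 0.86.

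NMDA receptors, which need glycine or D-serine beside glutamate, combine the obligate subunit of Grin1 with GluN2 or GluN3 subunits, and their 7 genes spread widest. Grin1 (chr2:25291177-25319187) read 7.06 and 6.33 in brain, 4.98 and 4.72 in heart, 5.06 and 4.55 in kidney and 3.84 and 3.79 in liver. Brain was highest, heart and kidney overlapped, and both liver libraries lay lowest. The brain difference was 2.20 ± 0.23 SE (adjusted p = 1.32e-08, limma with Benjamini-Hochberg). Grin1os, inside it, gave 1.62 ± 0.37 SE. Among the GluN2 subunit genes, Grin2c was 1.79 higher in brain, Grin2b 1.65 and Grin2a 1.61, while Grin2d was at 0.20 with overlapping libraries (adjusted p = 0.559, limma with Benjamini-Hochberg). Grin2c read 7.49 and 6.05 in brain. In Frozen tissue alone its difference was 1.26, below those of Grin2b and Grin2a, so its place above them rests on FFPE brain. Grin3a was 0.88 higher, and it was called in 10 of 16 alternative settings and stood at 0.49 without Frozen brain. Grin3b, the other GluN3 gene, was, with Gabre, 1 of 2 members whose difference was below 0, and it read 4.88 and 4.82 in brain, 5.56 and 5.11 in heart, 5.67 and 4.80 in kidney and 5.69 and 5.50 in liver. Frozen kidney lay below both brain libraries and FFPE kidney above them, and the difference of −0.54 ± 0.22 SE (adjusted p = 0.0803, limma with Benjamini-Hochberg) was not called. Grin3b also has the shortest span of the 52, 6794 bases.

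The delta receptors bind cerebellins at synapses. Grid1 read 5.03 and 5.13 in brain, 3.74 and 3.44 in heart, 3.68 and 4.02 in kidney and 4.28 and 3.39 in liver. Both brain libraries were above all others, and the difference was 1.33 ± 0.28 SE (adjusted p = 0.000702, limma with Benjamini-Hochberg).

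Of the 8 metabotropic glutamate receptor genes, 7 were higher in brain, with a median of 1.33. The gene that differed most was Grm4, a presynaptic group III receptor, which read 7.21 and 5.83 in brain, 4.26 and 5.15 in heart, 4.02 and 4.67 in kidney and 3.91 and 3.81 in liver. The FFPE brain library stood 1.38 above the Frozen one, and both were above the next library, Frozen heart. The difference was 2.21 ± 0.29 SE (adjusted p = 6.87e-07, limma with Benjamini-Hochberg). Without FFPE brain it was 1.28 and still called, and in Frozen tissue alone Grm5 (1.61) and Grm7 (1.59) stood above it, so that its rank rests on the FFPE brain library. Among the others, Grm3 was at 1.41, Grm5 at 1.39, Grm7 at 1.27, Grm2 at 1.24 and Grm8 at 0.77, the last called in 9 of 16 alternative settings. Grm6, the receptor of retinal ON bipolar cells, read 4.61 and 4.89 in brain, 4.19 and 4.01 in heart, 4.87 and 4.71 in kidney and 4.82 and 4.53 in liver. Brain overlapped kidney and liver there, and the difference of 0.23 ± 0.25 SE (adjusted p = 0.535, limma with Benjamini-Hochberg) was not called.

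**Figure D2:**
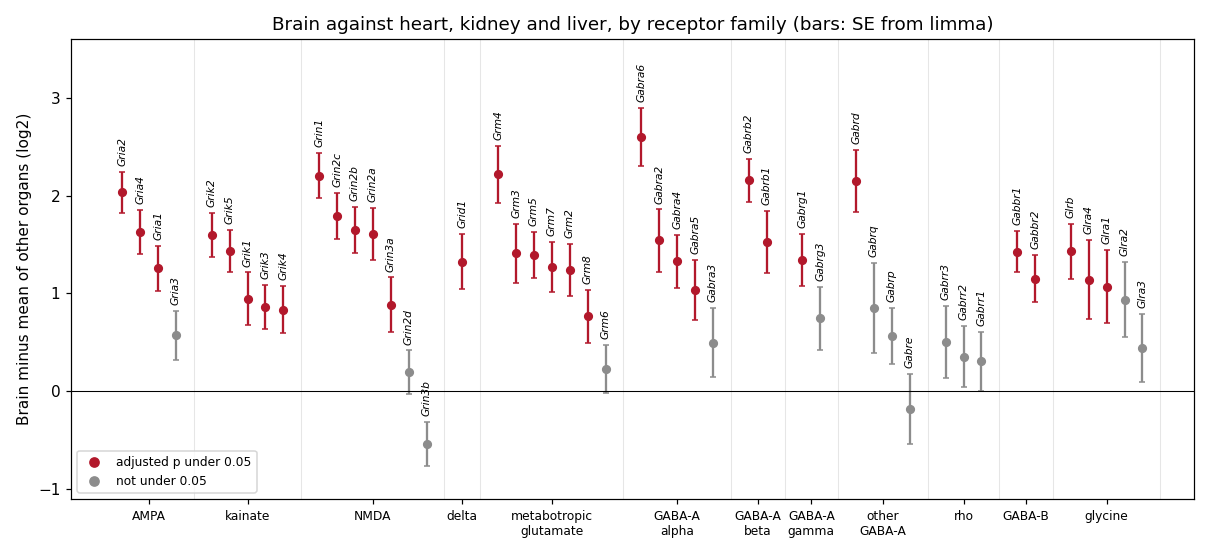
Brain minus the mean of heart, kidney and liver (vertical axis, log2) for 47 receptor genes, grouped by family, with bars of 1 SE from limma. Red points had an adjusted p under 0.05, and they include 5 of 5 kainate genes but 0 of 3 rho genes.

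GABA-A receptors usually join alpha and beta subunits with a gamma or delta subunit. Gabra6 (chr11:42306437-42321072), expressed mainly in cerebellar granule cells, had the largest difference of all 52 genes and read 6.95 and 5.34 in brain, 3.69 and 2.74 in heart, 3.70 and 3.89 in kidney and 3.80 and 3.49 in liver. The lower of the 2 brain libraries was 1.45 above the highest other library, and the difference was 2.60 ± 0.30 SE (adjusted p = 6.55e-08, limma with Benjamini-Hochberg). That rank too rests on FFPE brain, since in Frozen tissue alone Gabra6 was at 1.97, below Gabrb2 (2.21) and Gria2 (2.16) among others. Gabra2 was 1.54 higher, Gabra4 1.33 and Gabra5 1.04. Gabra3 read 3.65 and 3.37 in brain, 2.73 and 3.00 in heart, 3.05 and 3.90 in kidney and 2.87 and 2.52 in liver. Frozen kidney was its highest library, and the difference of 0.50 ± 0.35 SE (adjusted p = 0.337, limma with Benjamini-Hochberg) was not called.

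Among the beta subunit genes, Gabrb2 read 7.25 and 6.96 in brain, 5.20 and 4.94 in heart, 4.94 and 4.89 in kidney and 5.33 and 4.41 in liver. The lower brain library lay 1.63 above the highest of the others, and the difference was 2.15 ± 0.22 SE (adjusted p = 9.80e-09, limma with Benjamini-Hochberg). Gabrb1 read 4.78 and 4.97 in brain, 3.46 and 2.88 in heart, 3.08 and 3.95 in kidney and 3.70 and 3.04 in liver. Its libraries were lower throughout but still separate, with a difference of 1.53 ± 0.32 SE (adjusted p = 0.000520, limma with Benjamini-Hochberg).

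Of the gamma subunit genes, which matter for benzodiazepine sensitivity, Gabrg1 was 1.34 higher. Gabrg3 read 3.79 and 4.08 in brain, 3.16 and 3.58 in heart, 2.75 and 3.40 in kidney and 3.11 and 3.13 in liver. Its brain libraries were the 2 highest, and the difference of 0.75 ± 0.32 SE (adjusted p = 0.0971, limma with Benjamini-Hochberg) was not called.

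Among the other GABA-A genes, 1 of 4 was higher. Gabrd, whose delta subunit sits in extrasynaptic receptors, read 5.53 and 4.95 in brain, 3.08 and 2.79 in heart, 3.14 and 3.76 in kidney and 2.96 and 2.80 in liver. The lower brain library was 1.19 above the highest of the others, and the difference was 2.15 ± 0.31 SE (adjusted p = 4.20e-06, limma with Benjamini-Hochberg). Gabre read 2.71 and 3.04 in brain, 3.30 and 3.25 in heart, 3.29 and 3.19 in kidney and 3.00 and 2.33 in liver. FFPE brain was its second lowest library, and the difference of −0.18 ± 0.36 SE (adjusted p = 0.750, limma with Benjamini-Hochberg) was not called. Gabrq and Gabrp had differences of 0.85 and 0.57, neither called, and the 2 kidney libraries of Gabrq overlapped the brain ones.

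Of the 3 genes of the rho subunits, known best from the retina, 0 were called, and their median difference was 0.36. Gabrr3, with the largest difference, read 3.21 and 3.65 in brain, 2.62 and 1.94 in heart, 3.55 and 3.64 in kidney and 3.41 and 2.38 in liver. Kidney and brain overlapped, and the difference was 0.51 ± 0.37 SE (adjusted p = 0.346, limma with Benjamini-Hochberg). Gabrr1, with the smallest, read 4.19 and 3.71 in brain, 3.79 and 3.25 in heart, 3.52 and 3.85 in kidney and 3.95 and 3.49 in liver. Its libraries overlapped across all organs, and the difference was 0.31 ± 0.30 SE (adjusted p = 0.505, limma with Benjamini-Hochberg).

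The GABA-B receptor is a dimer of the products of Gabbr1 and Gabbr2, and both genes were higher in brain. Gabbr1 read 6.86 and 6.61 in brain, 5.39 and 5.83 in heart, 5.59 and 5.42 in kidney and 4.80 and 4.81 in liver. Brain was highest and liver lowest, without overlap, and the brain difference was 1.43 ± 0.21 SE (adjusted p = 5.60e-06, limma with Benjamini-Hochberg). Gabbr2 read 5.91 and 5.90 in brain, 4.92 and 5.07 in heart, 4.50 and 4.88 in kidney and 4.99 and 4.15 in liver. Brain stood above the 3 other organs, of which liver overlapped both heart and kidney, and the difference was 1.15 ± 0.24 SE (adjusted p = 0.000499, limma with Benjamini-Hochberg).

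Glycine receptors dominate fast inhibition in the spinal cord and brainstem. Glrb, the beta subunit gene that anchors the receptor to gephyrin, read 4.94 and 5.13 in brain, 3.37 and 3.63 in heart, 3.84 and 4.17 in kidney and 3.28 and 3.34 in liver. The brain libraries were the highest, with a difference of 1.43 ± 0.28 SE (adjusted p = 0.000226, limma with Benjamini-Hochberg). The alpha subunit genes Glra4 and Glra1 were 1.14 and 1.07 higher with adjusted p of 0.0378 and 0.037 (limma, Benjamini-Hochberg), and Glra2 was at 0.94 without a call. Both of those calls were lost in most alternative settings, Glra4 being called in 5 and Glra1 in 7 of 16. Glra3 read 3.36 and 3.61 in brain, 3.27 and 2.54 in heart, 3.08 and 3.35 in kidney and 3.11 and 2.94 in liver. Its FFPE brain library lay 0.02 above Frozen kidney, the smallest such gap among the members that did not overlap, and the difference was 0.44 ± 0.35 SE (adjusted p = 0.394, limma with Benjamini-Hochberg).

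Several GABA-A genes lie in clusters, and the position of a gene was not used to choose it. On chromosome 11, the neighbours Gabra6 and Gabrb2 were 2.60 and 2.15 higher in brain. On chromosome 5, Gabrg1, Gabra2, Gabra4 and Gabrb1 (70751047 to 72149572) were higher by 1.34, 1.54, 1.33 and 1.53, and Gabra4 and Gabrb1 overlap by 388 bases. On chromosome 7, Gabrg3 and Gabra5 differed by 0.75 and 1.04, of which the latter was called. On the X chromosome, Gabre, Gabra3 and Gabrq (72256926 to 72842607) differed by −0.18, 0.50 and 0.85, with no call. Of all 6 X-linked receptor genes only Glra4 was called, against 37 of 46 autosomal ones, while over all genes with a position 9.77% of X-linked and 8.86% of autosomal genes were higher in brain. The median of all X-linked genes was 0.33 in this comparison and that of autosomal genes 0.01. Most of the X-linked receptor genes also had few reads. Gabrq held 174 reads over all libraries, Glra4 280, Glra2 305, Gabre 329, Gabra3 375 and Gria3 907. The lowest total of an autosomal receptor gene was 349, at Glra1, which was called. The part of low reads in the count of X-linked calls was not tested. The sex of the mice is not given.

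**Figure D3:**
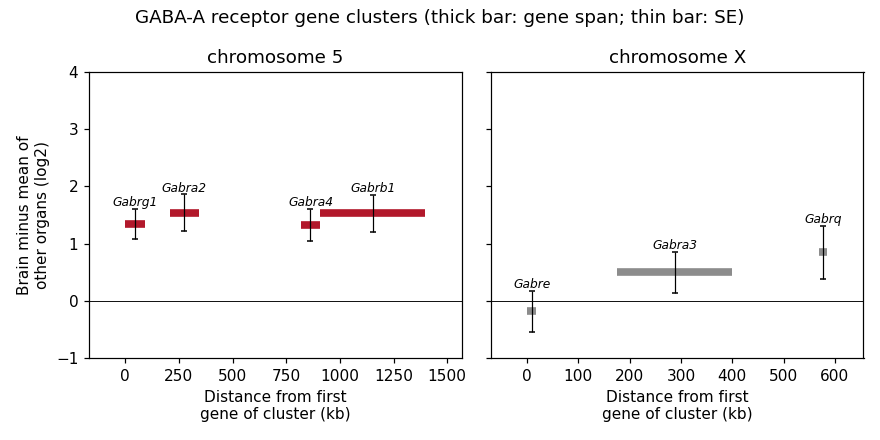
GABA-A gene clusters on chromosomes 5 and X, with distance from the first gene of each cluster (horizontal axis, kb) and brain minus the mean of the other organs (vertical axis, log2). Thick bars are gene spans, red where the adjusted p was under 0.05, and thin bars are 1 SE; the 4 genes on chromosome 5 lie between 1.33 and 1.54, and the 3 on X between −0.18 and 0.85.

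Span and promoter letters were set beside the brain difference as descriptions across genes, and genes do not count as replicates. The receptor genes are long, with a median span of 160403 bases against 14611 for all genes with a position. Spearman's rho of span against the brain difference was 0.08 over the 52 genes. Against the mean level in brain it was 0.17, so values per kilobase of span favour short genes. The counted part of a gene is not given. Per kilobase of span, brain values were highest at Grin2c, with 6.03 CPM per kb, followed by Gabra6 at 4.84, Grin3b at 4.24, Gabbr1 at 3.76 and Grin1 at 3.70. Grin3b alone among these 5 was higher per kb in the other organs, at 6.16. The brain values per kb average both brain libraries, and the order rests partly on FFPE brain. Grin2c read 7.49 log2 CPM in FFPE and 6.05 in Frozen brain, and Gabra6 read 6.95 and 5.34. In Frozen brain alone, Grin3b stood highest per kb. The 43 promoter windows held a median of 11 CG dinucleotides against 7 over all 32851 promoters in the RefSeq table, with a median GC content of 59.0% against 52.7%. The number ranged from 0 in Gabra3 to 50 in Grik3, and its rho with the brain difference was 0.33 over 36 genes. Grin1 and Gabra6, printed above, stood at 33 and 2 in the full window although both were among the 3 genes with the largest differences.

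The letters TATAAA were found on either strand in 5 of 43 windows (11.6%, against 13.6% of all promoters), and the letters TGACGTCA of the cyclic AMP response element in 0 (1.79%). The left part of the REST element, TTCAGCACC, was found in 1 window (2.33%, against 0.371%), and the right part, GGACAG, in 17 (39.5%, against 22.2%). Grm2 was the only receptor gene whose window held both, which 30 of all 32851 promoters (0.0913%) did. Its 2 parts lie on the same strand with 7 bases between them, as the capitals in the sequence above show. A match describes the letters alone.

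The second question was whether any receptor gene stood out in heart, kidney or liver. Brain was the highest organ by mean for 47 of the 52 genes, kidney for Grm6, Gabrq and Gabrr3, heart for Gabre and liver for Grin3b. Kidney came next to the top most often, in 33 genes, while heart was lowest in 29 and liver in 20. Against the mean of the other 3 organs, which includes brain, heart was lower at 14 genes (7.31% of all genes were lower) and liver at 13 (9.73%), kidney at 2 (2.03%, and 5.22% in either direction), Gabrb2 among them, and none of the 3 was higher at any receptor gene, where 9.42% of all genes were higher in heart, 11.2% in liver and 3.19% in kidney. At an unadjusted p under 0.05, 0 receptor genes were higher in heart, 0 in liver and 1 in kidney, and voom called 0 higher in any of the 3. The heart count was 0 without Frozen heart, 5 without Frozen kidney and 23 without Frozen liver, the liver count 3 without Frozen liver and 7 without Frozen kidney, and the kidney count 0 without either kidney library and 1 without either heart library or FFPE liver.

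A comparison among the 3 organs without brain was added after the values were seen. Against the mean of kidney and liver, heart was higher at 0 receptor genes (7.87% of all genes) and lower at 0 (7.03%), 14.9% of all genes differing in either direction. Against the mean of heart and liver, kidney was higher at 0 (3.47%) and lower at 0 (4.51%), with 7.98% in either direction. At an unadjusted p under 0.05, 1 gene was higher and 5 lower in heart and 6 were higher in kidney, of which voom called 1, Gabrq, in kidney and 0 in heart. The share over all genes at that unadjusted threshold was not computed. Liver was lower than the mean of heart and kidney at 2 genes and higher at 0, where 7.87% and 8.46% of all genes were. These were Grin1, lower by 1.01 on the log2 scale (SE 0.24, adjusted p = 0.00241, limma with Benjamini-Hochberg), and Gabbr1, lower by 0.76 (SE 0.23, adjusted p = 0.0165, limma with Benjamini-Hochberg). Both liver libraries lay below all 4 heart and kidney libraries at both genes, and the share of all genes with that order was not computed. Grin1 kept its call when Frozen heart, FFPE kidney or Frozen liver was left out and lost it without FFPE liver, and Gabbr1 lost its call in each of these 4 cases. The medians of the 52 genes were −0.19 in heart, 0.26 in kidney and −0.12 in liver, against −0.01, 0.0049 and −0.03 over all genes.

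The third question was whether the preservation moved the receptor genes. Between FFPE and Frozen tissue over the 4 organs 0 of 52 were called, against 3.91% of all genes, 2.0% higher and 1.91% lower in FFPE (limma, Benjamini-Hochberg). At an unadjusted p under 0.05 there were 3, Grin2c (0.65, adjusted p = 0.066), Gabra6 (0.67, adjusted p = 0.154) and Gabra2 (0.57), all toward FFPE. A share of 0.05 passes that unadjusted threshold without any difference, and the share over all genes was not computed. With voom weights on the recovered reads, Gabra6 and Grin2c were called. The median receptor gene differed by 0.10, and the median over all genes by 0.02.

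The brain difference was seen in both preservations. With 1 library per organ in each, it has no test there. Brain was at least 2-fold above the mean of the other organs at 36 of 52 genes in Frozen tissue (9.82% of all genes with at least 80 reads over the 4 libraries) and at 28 of the 51 genes with that many reads in FFPE tissue (6.81%), and 27 genes passed in both. At 49 genes the difference was above 0 in both, and at 34 it was the larger in Frozen tissue. The share of all genes above 0, with at least 80 reads, was 49.7% in Frozen and 47.1% in FFPE tissue. For the joint counts of 27 and 49 and for the count of 34, no share over all genes was computed. The medians over the receptor genes with at least 80 reads were 1.34 in Frozen and 1.12 in FFPE tissue. Across the 52 genes the 2 sets of differences had a Pearson r of 0.692 and a Spearman rho of 0.704, as a description of 2 separate sets of libraries.

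Within brain, 3 receptor genes stood far from the rest. Gabra6 was 3.07 times as high in FFPE as in Frozen brain (exact 95% interval 2.63 to 3.58, counting error only), Grin2c 2.71 times (2.40 to 3.06) and Grm4 2.61 times (2.28 to 2.98). All 3 are known from cerebellar granule cells. They were the only receptor genes at least 2-fold apart, against 2.53% of all genes with at least 40 reads over the pair that were 2-fold up, and 0 receptor genes were 2-fold down, against 1.83%. Grin1 stood at 1.66 and Gabrd at 1.49, and at the other end stood Gabra4 at 0.571 (0.469 to 0.693) and Glra2 at 0.593. In all, 11 intervals lay above 1 and 11 below, and the median log2 ratio of the 52 was −0.01. The share of such intervals over all genes was not computed.

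**Figure D4:**
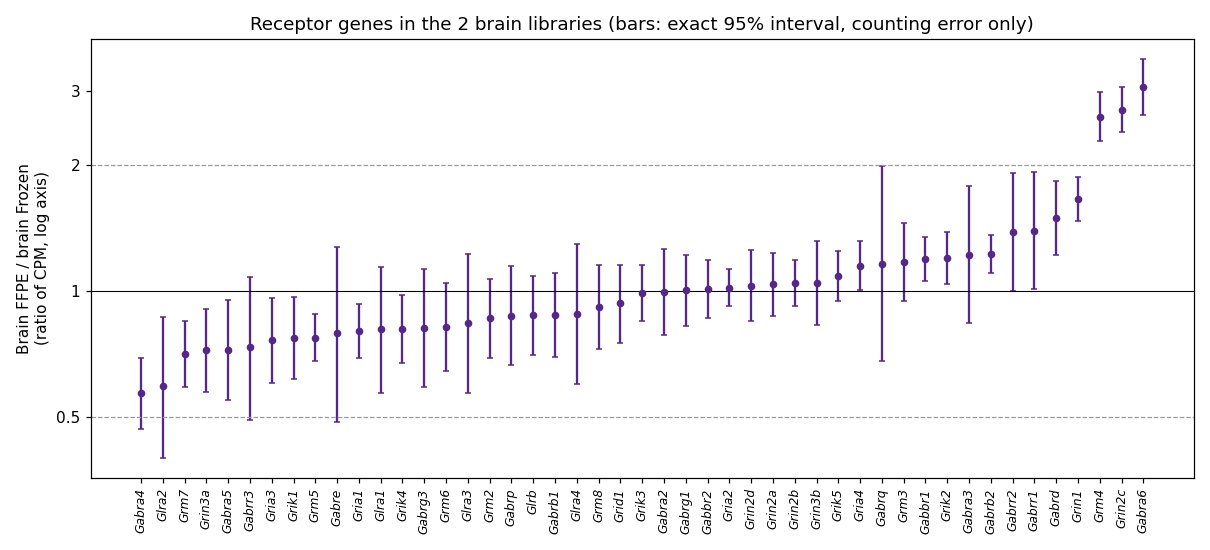
Ratio of FFPE to Frozen brain (vertical axis, CPM, log scale) for 47 receptor genes in rising order, with exact 95% intervals that cover counting error only. Gabra6, Grin2c and Grm4 lie above the dashed line at 2, and no gene lies below the line at 0.5.

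In the other organs those 3 genes did not move alike. FFPE minus Frozen for Gabra6 was 1.61 in brain, against 0.95 in heart, −0.18 in kidney and 0.31 in liver. For Grin2c it was 1.44 in brain, against 0.21 in heart, 0.19 in kidney and 0.75 in liver. For Grm4 it was 1.38 in brain, against −0.89 in heart, −0.65 in kidney and 0.09 in liver. A term for FFPE in brain, added to the model after these values were seen and resting on 1 library per group, called 0 of 52 receptor genes and 2 of all genes (0.00742%). At an unadjusted p under 0.05 there were 4, and voom called 0. Grm4 differed by 1.86 ± 0.49 SE (adjusted p = 0.209, limma with Benjamini-Hochberg), Gabra6 by 1.26 ± 0.57 SE, Grin2c by 1.05 ± 0.44 SE and Gabra4 by −1.07 ± 0.54 SE. Grm4 was called (2.09, adjusted p = 0.037) when all libraries were given the same median and spread before limma.

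Markers of cerebellum and telencephalon, listed after these values were seen, were set beside them. Of 14 cerebellum genes, 7 were at least 2-fold higher in FFPE than in Frozen brain and 11 above 0, with a median of 0.91. They were Cbln1 and Zic2 (both 1.83), Cbln3 (1.74), Pax6 (1.61), Zic1 (1.58), Neurod1 (1.47) and En2 (1.13). Of the other 7, Fat2 was at 0.68 and Barhl1 at −0.06, and the Purkinje cell genes Calb1, Car8, Pcp2, Itpr1 and Slc1a6 were at 0.47, 0.30, 0.07, −0.05 and −0.36. The summed level of the list was 10.73 log2 CPM in FFPE and 9.61 in Frozen brain, and 8.91 to 9.34 in the other organs. Of 12 telencephalon genes, 1 was at least 2-fold higher (Neurod2, 1.03) and 9 were above 0, with a median of 0.20 and summed levels of 9.25 and 8.89. Among all genes with at least 40 reads over the pair, 2.53% were at least 2-fold higher in FFPE brain and 50.0% were above 0. The part of the brain that each library came from is not given, and the part of these genes in the receptor differences was not tested.

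**Figure D5:**
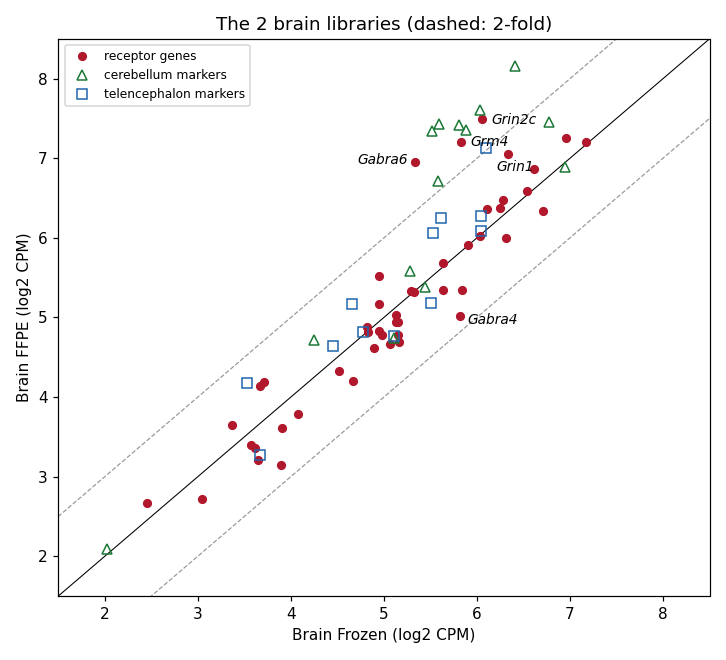
FFPE against Frozen brain (log2 CPM on both axes) for 47 receptor genes and the cerebellum and telencephalon lists, with the line of equal values and dashed lines at 2-fold. Gabra6, Grin2c and Grm4 lie above the upper dashed line together with 7 of 14 cerebellum genes.

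Proteins that work with these receptors were described from 3 lists, to be read against the 8.73% of all genes that were higher in brain and the 13.6% that were lower. Of 19 auxiliary subunit genes 12 were higher in brain and 0 lower, with a median of 1.14. The largest differences were at Kctd8 (2.14 ± 0.25 SE) and Kctd16 (1.74 ± 0.37 SE), which encode auxiliary subunits of the GABA-B receptor, and at Cacng2 (1.63 ± 0.29 SE), which encodes stargazin, an AMPA receptor partner. Of 29 scaffold and adhesion genes 19 were higher and 0 lower, with a median of 0.83, led by Cbln1 (2.64 ± 0.28 SE), a cerebellin that bridges neurexins and delta receptors, Nlgn3 (1.69 ± 0.30 SE), a neuroligin, and Dlgap3 (1.57 ± 0.24 SE), a postsynaptic scaffold. Gphn, the gephyrin gene, was at 0.08 and was not called. Of 21 genes for transmitter synthesis, packing and uptake 11 were higher, with a median of 0.78, led by the vesicular glutamate transporter genes Slc17a7 (1.61 ± 0.27 SE) and Slc17a6 (1.44 ± 0.26 SE) and the vesicular GABA and glycine transporter gene Slc32a1 (1.43 ± 0.28 SE). In that list 1 gene was lower, the GABA transporter gene Slc6a13. It read 4.23 and 4.30 in brain, 4.03 and 4.01 in heart, 4.38 and 4.92 in kidney and 6.18 and 6.48 in liver, so that liver stood above the other 3 organs, and the brain difference was −0.73 ± 0.24 SE (adjusted p = 0.0208, limma with Benjamini-Hochberg). Without Frozen brain, 22 of these partner genes were called in place of 43.

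The genes most like Grin1 over the 8 libraries were Snap25 (Pearson r 0.988), a SNARE protein of synaptic vesicle release, H2bu2 (0.988), a histone H2B gene, Scn3b (0.986), a sodium channel beta subunit, Stmn2 (0.986), a neuronal microtubule regulator, and Scrn1 (0.984). Among receptor genes Gabbr1 was nearest, at 0.970, and ranked 33 in the whole table. These are descriptions over 4 organs, since the libraries of an organ share its profile.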

How the data were processed

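H3K27Ac ChIP-seq was measured in 8 columns of 1 table, brain, heart, kidney and liver in FFPE and Frozen form. The authors deposited log2 values per gene. The tools named in the submitters' processing notes are Bowtie2, featureCounts and limma, with the build mm10. Their versions, the counted part of a gene and the treatment of multiply mapped reads were not given in the sources used here. Every value is the log2 of reads plus 0.5 relative to a scaled library size (CPM), and 100% of values gave whole reads within 0.001; scaling factors ran from 0.749 to 1.22. Of 27179 genes, 235 at 0 in all columns were removed and 1275 carry no symbol. Inputs were not analysed here.

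A linear model with organ and preservation was fitted to all 26944 genes with limma 3.58.1 in R 4.3.3 (moderated variance with a trend, two-sided tests, Benjamini-Hochberg over all genes), leaving 3 residual degrees of freedom; tables were made with Python 3.11.15, pandas 2.3.3 and scipy 1.17.1. The fit was tested on simulated data. A fold is on the scale of log2 with an offset of 0.5 reads, which understates the change of low genes. Alternatives were a variance prior without trend, quantile normalization, equal median and spread, no filter, at least 80 reads, an offset of 2 reads, voom weights, organ alone, and leaving out each library. Positions are from RefSeq GRCm38.p6, which matched all 53 members and 25271 genes. Ratios of 2 libraries carry exact 95% binomial intervals, which cover counting error only, since reads without molecular identifiers are not independent molecules.

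Named in full were the members with the largest and the smallest brain difference in each family, apart from 5 genes that are counted but not named or plotted here, those called between preservations or higher in another organ, the 3 partner genes with the largest brain difference in each list, those called lower, and the 5 genes most like Grin1. The members and lists were chosen with earlier results of these data known. The cerebellum and telencephalon lists, the FFPE-in-brain term and the comparisons among heart, kidney and liver were added after the values were seen, as was the naming of Grin2c, Gabra4, Gabra2 and Grm2.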

Additional observations from a re-analysis of the deposited data

How the results depend on the processing

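No called result changed direction under any setting tried. Leaving out 1 library at a time gave 24 to 38 called receptor genes in brain, 0 to 23 in heart, 0 to 3 in kidney and 3 to 15 in liver against the other 3 organs, 0 to 2 in heart, 0 to 2 in kidney and 0 to 3 in liver when these 3 organs were compared with each other, and 22 to 45 partner genes in brain. A variance prior without trend gave 0 in heart, 0 in kidney and 4 in liver against the other 3 organs, 0 in liver against heart and kidney, and 26 partner genes. Without the filter on low genes the brain count was 34, the heart count 8 and the kidney count 0. Quantile normalization gave 1 in heart against kidney and liver. An offset of 2 reads and voom weights each gave 1 in kidney against heart and liver, and voom gave 2 between FFPE and Frozen. Equal median and spread gave 1 for the FFPE-in-brain term. The cause of these moves was not tested. Fits that left out 1 library also rest on fewer libraries, and the part of that was not tested either. No paired analysis was possible because the columns carry no replicate number, apart from the organ term, which already sets FFPE against Frozen within each organ. Low reads limit Gabrq, whose smallest library held 8.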
